A study of Mus musculus with 6 samples.

Results

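The genes described here are the replication-dependent histones, the protein-coding genes of the mouse Hist1, Hist2, Hist3 and Hist4 clusters, as they were measured in libraries made from polyadenylated RNA. They were selected by gene symbol and class: 64 of the 43309 genes counted were protein-coding and had a symbol that starts with Hist1h, Hist2h, Hist3h or Hist4h. Among the 64, 6 encode linker histone H1, 18 encode H2A, 15 encode H2B, 12 encode H3 and 13 encode H4. The Hist1 cluster on chromosome 13 holds 52 of them, the Hist2 cluster on chromosome 3 holds 9, the Hist3 cluster on chromosome 11 holds 2, and Hist4h4 lies alone on chromosome 6.

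During S phase the cell copies its DNA and needs histones to package it, and most of these come from the replication-dependent genes. Their mRNAs usually do not end in a poly(A) tail. They end just after a short hairpin, the histone stem-loop, which is bound by SLBP (the stem-loop binding protein) and cut by a complex that includes the U7 snRNP. A library kit that captures poly(A) tails therefore loses most of these mRNAs, and what it keeps may come from transcripts that read on to an ordinary poly(A) signal. Replication-independent histone genes, such as H3f3a, H3f3b and H2afz, make polyadenylated mRNAs throughout the cell cycle. The comparison asks how much signal the replication-dependent genes leave in such libraries, and which of them differ between the groups.

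The libraries were made with the TruSeq Stranded mRNA kit from mouse embryonic stem cells of the J1 (129SV) strain, grown in serum without feeder cells. The control group is 3 lines labelled Zbtb24 wild-type (2lox/+), so that the controls also carry a floxed allele, and the other group is 3 lines labelled Zbtb24 knockout (1lox/1lox). Each line gave 1 library, of 25042261 to 28838924 counted fragments. Zbtb24 encodes a zinc finger protein, and its counts were 510, 512 and 489 in the control libraries, against 888, 925 and 1039 in the others, which goes against the label if the deletion removes the mRNA. The group is therefore called "labelled knockout" throughout. Nothing used here shows whether the counts lie within or outside the deleted part.

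The stem-loop of each gene is shown first, since it is the mRNA end that a poly(A) capture misses. A stem of 6 base pairs that opens with GG and closes with CC, with a loop of 4 bases that starts with T, was searched within 150 bases after the stop codon of the annotated transcripts (sense strand, mm10). It was found in 44 of the 64 genes, in each with all 6 pairs formed (68.8%), and in 0.495% of 21397 other protein-coding genes searched in the same way. It began 21 to 58 bases after the stop codon. The following stem-loops belong to the genes whose counts differed between groups, with Hist4h4 for the cluster of a single gene. Capitals mark the 2 arms of the stem, and the loop stands between them in lower case.

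Hist1h1c, chr13:23739507-23739532, plus strand: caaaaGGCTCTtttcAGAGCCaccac
Hist1h1d, chr13:23555782-23555807, plus strand: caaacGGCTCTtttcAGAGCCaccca
Hist3h2a, chr11:58955167-58955192, plus strand: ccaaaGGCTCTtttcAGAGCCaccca
Hist3h2ba, chr11:58949344-58949369, plus strand: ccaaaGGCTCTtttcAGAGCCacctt
Hist1h2bj, chr13:22043633-22043658, plus strand: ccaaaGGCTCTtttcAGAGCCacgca
Hist1h3c, chr13:23745042-23745067, minus strand: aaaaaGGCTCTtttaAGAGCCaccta
Hist1h4i, chr13:22040961-22040986, minus strand: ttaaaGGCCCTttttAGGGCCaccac
Hist1h4j, chr13:21735432-21735457, plus strand: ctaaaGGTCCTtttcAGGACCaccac
Hist4h4, chr6:136803993-136804018, minus strand: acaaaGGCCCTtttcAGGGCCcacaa

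The letters of the stem followed the histone class. All 32 stem-loops found in H1, H2A, H2B and H3 genes had the left arm GGCTCT, whereas none of the 12 found in H4 genes had it. Of those 12, 10 had GGCCCT and 2 had GGTCCT. The right arm was the exact complement in each, so the H4 stems differ from the others while still forming 6 pairs. The loop read tttc in 33 genes, ttta in 6, tttt in 3, tctc in 1 and tctt in 1. Among the 20 genes without a match, 16 have an annotated 3′ UTR of under 50 bases, which may end before the stem-loop, and 4 have one of over 150 bases.

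A second feature bears on poly(A) capture directly, namely a poly(A) signal (AATAAA or ATTAAA, sense strand) in the last 50 bases of an annotated transcript. This was found in 17 of the 64 genes (26.6%) and in 81.7% of the 21397 other protein-coding genes. The signals printed here belong to genes whose counts differed between groups, with the hexamer in capitals.

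Hist1h1c, chr13:23740330-23740359, plus strand: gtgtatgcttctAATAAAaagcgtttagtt
Hist1h4i, chr13:22040639-22040668, minus strand: ggttctgtttacATTAAAagtattctatgc
Hist2h2be, chr3:96223705-96223734, plus strand: gttattattattAATAAAgttaccgattag
Hist3h2a, chr11:58956785-58956814, plus strand: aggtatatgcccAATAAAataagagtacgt
Hist3h2ba, chr11:58949495-58949524, plus strand: cataatggtattAATAAAtttggttcaatt
Hist1h4j, chr13:21735815-21735837, plus strand: aataaaattctgAATAAAactgc

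In Hist1h1c, Hist1h4i, Hist1h4j, Hist3h2a and Hist3h2ba the annotated mRNA thus runs through the stem-loop and on to a poly(A) signal. Their annotated 3′ UTRs are 880, 376, 430, 1700 and 213 bases long, in that order. Hist2h2be, an H2B gene of the Hist2 cluster, has an annotated 3′ UTR of 2192 bases with a poly(A) signal and no stem-loop match within the window searched.

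The replication-dependent histones left very few counts in these libraries. Over all 64 genes, 626, 720 and 666 fragments were counted in the control libraries, against 589, 581 and 668 in the labelled knockout libraries. That is 24.6 ± 2.06 and 22.9 ± 0.532 per 1000000 counted fragments (SD, n = 3 each), and the ranges of the groups overlap (22.6 to 26.7 against 22.3 to 23.2). As a share of all counts this is 0.00246% ± 0.000206 in the control group and 0.00229% ± 5.32e-05 in the group labelled knockout (SD, n = 3).

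The 12 replication-independent histone genes measured in the same libraries took 0.274% ± 0.00433 of the counts in the control group and 0.288% ± 0.00382 in the other (SD, n = 3). For each fragment on a replication-dependent gene there were thus 112 ± 7.75 on these 12 genes in the control group against 126 ± 2.31 in the group labelled knockout. This ratio ran from 104 to 119 in the control libraries and from 124 to 128 in the others, so that the groups did not overlap.

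On the scale of TMM-normalized counts per 1000000 fragments (cpm) per kilobase of annotated exon, the median level of the 64 genes was 0.272, against 4.23 for the 14603 protein-coding genes with at least 10 counts in a library. The highest, Hist1h4i at 4.79, was equalled or exceeded by 32.3% of 21461 protein-coding genes. The replication-independent H2afz, H3f3b and H3f3a stood at 509, 292 and 136 on the same scale. Exon lengths came from GENCODE M21, whereas the fragments were counted on GENCODE M4. A length may therefore include exon that was not counted, which limits every level per kilobase given here. No fragment at all was counted in 5 of the 64 (Hist1h2ba, Hist2h2aa1, Hist2h2aa2, Hist2h2ab and Hist2h3c1). A count of 0 in a library allows up to 3 counts there, a limit that covers counting error only. It does not apply to Hist2h2aa1, Hist2h2aa2 and Hist2h3c1. All of their 76-base stretches also appear in transcripts of other genes. For Hist2h2aa1 and Hist2h3c1 these may include Gm20634, whose span overlaps theirs on the same strand in GENCODE M21. Fragments were discarded if they fit several locations or fell on several genes. Which of these applied to each gene was not checked. The intervals of fold changes given below come from the edgeR fit, which includes both counting error and the spread between lines. That spread was small (common dispersion 4.02e-04), so for genes with as few counts as these the intervals hold mostly counting error.

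**Figure D1:**
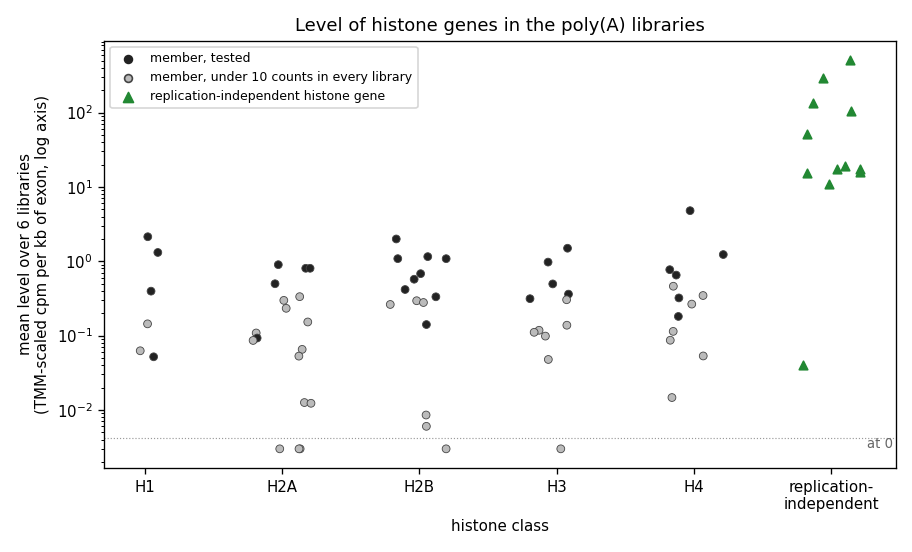
Each point is 1 histone gene, with its mean level over the 6 libraries (TMM-scaled cpm per kilobase of exon, log axis) by histone class, and genes at 0 drawn on the bottom line. The members reach 4.79 (Hist1h4i), whereas 11 of the 12 replication-independent genes lie at 11.1 or above, the exception being the oocyte linker histone H1foo at 0.0399.

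Signal was uneven among the members. The genes with most counts were Hist1h4i (an H4 gene), Hist1h1c and Hist1h1a (linker histones) and Hist1h2bc (an H2B gene), and these 4 held 40.7% to 43.9% of the members' counts in every library. By class, H2B genes held 29.0% of the members' counts, H4 genes 27.1%, H1 genes 22.5%, H3 genes 11.6% and H2A genes 9.84%. The median level per kilobase was lowest for H2A at 0.101, and lay at 0.221 for H3, 0.270 for H1, 0.322 for H4 and 0.333 for H2B. The ranges of single genes within each class overlap widely.

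The 26 genes with an annotated 3′ UTR of over 150 bases held 66.1% of the members' counts, and the 38 others held 33.9%. Per kilobase the order was the reverse, with a median of 0.142 for the long and 0.301 for the short group. The long ones have more exon over which fragments are spread. They also have more unique sequence by the measure described below, with a median of 78.0% against 33.3%. The part of each in these values was not tested. The 17 genes with a poly(A) signal near an annotated end held 49.1% of the counts. These are descriptions of the 64 genes, and no test was made of them.

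The 3 forms made mainly in the testis, Hist1h1t (linker histone), Hist1h2aa (H2A) and Hist1h2ba (H2B), had 16 counts between them in all 6 libraries. Their sums per library ran from 1 to 5.

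Copies of histone genes are so alike that a fragment may fit several of them, and the authors discarded fragments that mapped to multiple locations. The share of 76-base stretches (the read length) of each gene that appear in no annotated transcript of another gene was therefore computed. The other gene may be a copy elsewhere or a gene that overlaps at the same place, and the measure does not tell these apart. Its median over the 64 genes was 56.0%, from 0% to 100%. H2A genes had the lowest median at 28.5%, followed by H3 at 41.3%, H2B at 52.7%, H4 at 75.6% and H1 at 99.3%. The 17 genes with at most 25% of such stretches held 5.25% of the members' counts. Of these, 4 genes had none at all (Hist2h2aa1, Hist2h2aa2, Hist2h3c1 and Hist2h3b), so that their counts say little about their mRNA. Hist2h3b still had 1, 2 and 3 counts in the control group against 0, 0 and 2 in the group labelled knockout. A share of 0% thus does not exclude counts. The measure scores single 76-base stretches, whereas fragments were read from both ends. Across the 64 genes, Spearman's rho between this share and the level per kilobase was 0.281, given as a description because the points share libraries and sequence.

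**Figure D2:**
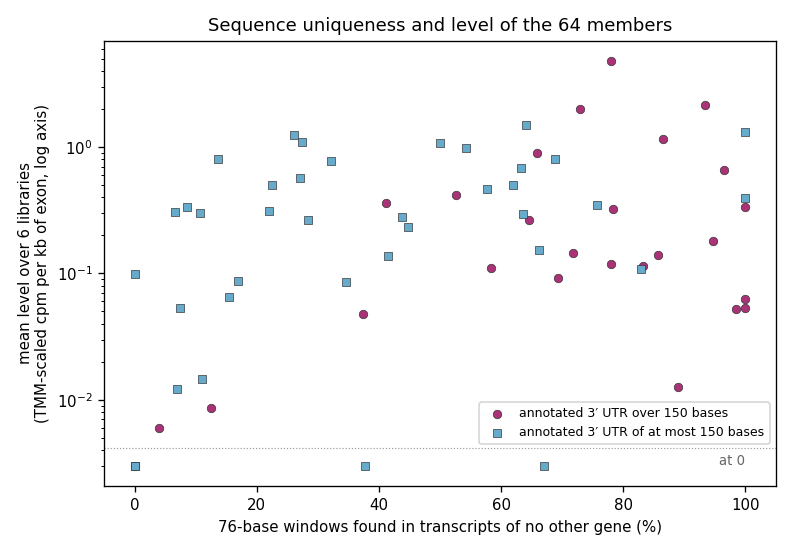
Each point is 1 of the 64 members, with the percentage of its 76-base windows found in no other gene's transcripts (horizontal axis) and its mean level in TMM-scaled cpm per kilobase (vertical log axis, genes at 0 on the bottom line). Circles are genes with an annotated 3′ UTR of over 150 bases and squares the others. The 2 genes with the highest levels, Hist1h4i at 78.1% and Hist1h1c at 93.4%, lie on the right.

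The promoters of the members (RefSeq annotation on GRCm38.p6, a window around the start of transcription, found for 59 genes) were searched on both strands for 3 short motifs, with letters shared by different motifs allowed to count for each. The CCAAT box (CCAAT) was in 50 of the 59 (84.7%), against 39.0% of 17492 promoters. It was present in all 6 H1, 18 H2A, 13 H2B and 10 H3 promoters and in 3 of 12 H4 promoters. The TATA box (TATAAA) was in 35 (59.3%), against 13.3% of all. The octamer motif (ATTTGCAT), known from H2B promoters, was in 11 (18.6%), against 1.71% of all. Of these 11, 7 were H2A and 4 were H2B promoters, and the genes of these classes often lie head to head in pairs. A match of letters is not a site shown to be used.

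The groups were then compared with edgeR's quasi-likelihood test over the 16823 genes with at least 10 counts in a library. Of the 64 members, 29 reached that minimum and 35 did not, with at most 9 counts in any library and 56 to 95 in all per library. Among the 29 tested, 4 were higher in the libraries labelled knockout and 5 were lower at an adjusted p of at most 0.05, and 20 did not pass. Over all 16823 genes, 34.4% were called higher and 35.2% lower, 69.5% in either direction. Among the 5590 tested genes whose mean count lay in the members' range (3.50 to 94.0), 20.2% were called higher and 34.2% lower. The members' share of calls was thus not above this background. Their median log2 fold change was 0.004, with 15 values above 0 and 14 below, and the median was 0 over all genes tested and -0.16 over those in the members' range of mean counts. The median standard error of the members' log2 fold changes was 0.351, against 0.0667 over all genes tested, which limits what could be detected.

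**Figure D3:**
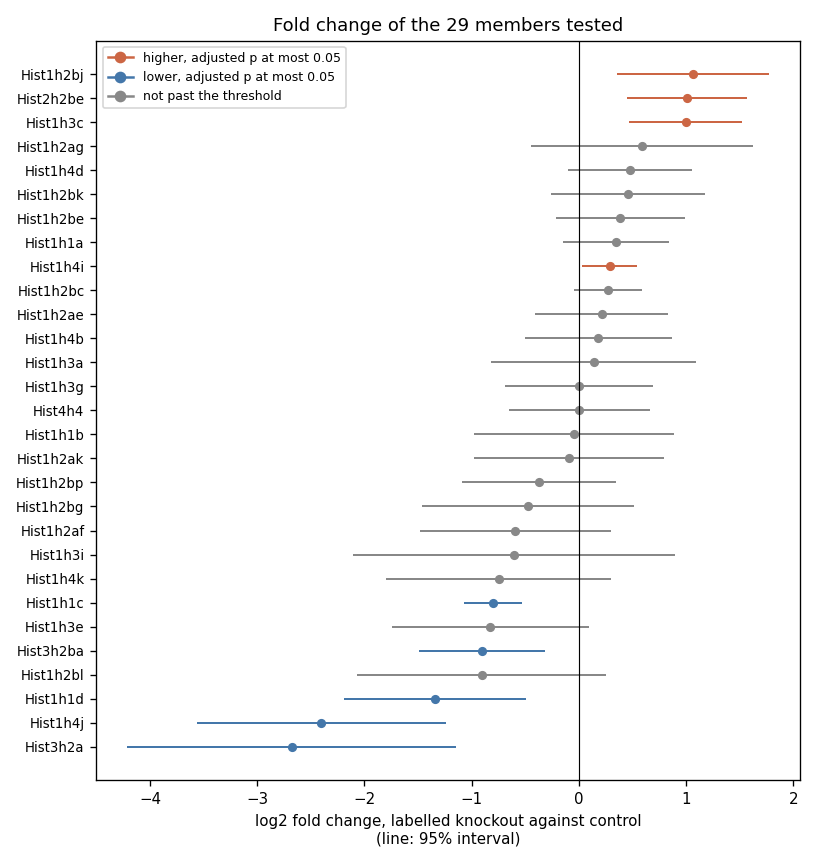
Points are the log2 fold changes (labelled knockout against control, horizontal axis) of the 29 members tested, with lines for the 95% interval. The 5 genes called lower reach from Hist1h1c at -0.81 to Hist3h2a at -2.68, and the 4 called higher from Hist1h4i at 0.29 to Hist1h2bj at 1.06.

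Of the 4 H1 genes tested, 2 were lower and none was higher. Among all tested genes in the members' range of mean counts, 34.2% were lower and 20.2% higher. With so few genes, no excess over that background can be read from the H1 count. H1 binds the DNA between nucleosomes. Hist1h1c, which encodes H1.2, had 108, 131 and 114 counts in the control group against 62, 54 and 76 in the group labelled knockout. Every control library lay above every other library. The log2 fold change was -0.81 (SE 0.130, 95% interval -1.07 to -0.54, edgeR adjusted p = 3.97e-07), the smallest adjusted p among the members. Hist1h1c is 93.4% unique by the measure above and overlaps no gene on its strand (chr13:23738808-23740367).

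Hist1h1d, which encodes H1.3, had 14, 17 and 15 counts in the control group against 2, 8 and 7 in the other. The groups did not overlap, and the log2 fold change was -1.34 (SE 0.417, edgeR adjusted p = 3.97e-03). Hist1h1a, which encodes H1.1, had 20, 22 and 29 counts against 21, 32 and 33, with overlapping groups. Its log2 fold change was 0.35 (95% interval -0.14 to 0.83), which did not pass the test. Hist1h1b, which encodes H1.5, had 7, 13 and 5 counts against 6, 6 and 11, and its log2 fold change was -0.05 (95% interval -0.97 to 0.87).

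The remaining H1 genes, Hist1h1e (8, 5 and 8 against 8, 7 and 9 counts) and the testis form Hist1h1t, were below the minimum and were not tested. The span of Hist1h1e overlaps those of Hist1h2be and Gm11398 on its own strand in GENCODE M21. Fragments that fall on several genes were discarded, but whether their exons overlap in the M4 annotation used for counting was not checked. Summed over the 6 H1 genes, the counts were 157, 188 and 173 in the control group against 101, 110 and 138 in the group labelled knockout. That is 173 ± 15.5 against 116 ± 19.3 (SD, n = 3), most of it from Hist1h1c.

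A pair of replication-independent linker histones, H1f0 and H1fx, was higher. H1f0, a linker histone known from cells that stop dividing or differentiate, had 509, 572 and 537 counts in the control group against 1262, 1130 and 1287 in the other (log2 fold change 1.26, SE 0.0478, edgeR adjusted p = 4.64e-28). H1fx had a log2 fold change of 0.68 (SE 0.0568, edgeR adjusted p = 6.49e-15). The difference between the H1 genes of the 2 kinds was not tested.

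Among the core histones, the Hist3 cluster had both of its genes lower. Hist3h2ba, an H2B gene, had 24, 28 and 25 counts in the control group against 17, 8 and 14 in the group labelled knockout. The groups did not overlap (log2 fold change -0.90, SE 0.286, edgeR adjusted p = 4.79e-03). Hist3h2a, an H2A gene on the same strand a few kilobases away, had 3, 8 and 18 counts against 0, 0 and 4. Its log2 fold change was -2.68 (95% interval -4.20 to -1.16, edgeR adjusted p = 1.69e-03), but the groups overlapped and DESeq2 gave an adjusted p of 0.0953. Without the third library labelled knockout the other two of that group are at 0, and the fitted value moves to -6.24, which is set by the prior count and is no bound. Without the third control library the gene falls below the minimum of 10 counts and was not tested, so the call rests on that library. Hist3h2a is 69.4% unique by the measure above. Its span overlaps that of Trim17 on its own strand in GENCODE M21. Fragments that fall on several genes were discarded, but whether the exons overlap in the M4 annotation used for counting was not checked.

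Hist1h4j, an H4 gene named here because its call was seen, had 12, 13 and 10 counts in the control group against 4, 1 and 1 in the other. The groups did not overlap (log2 fold change -2.40, 95% interval -3.55 to -1.25, edgeR adjusted p = 2.52e-04). The value was -3.33 without the first library labelled knockout.

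The 4 genes that were higher came from H2B, H3 and H4. Hist1h3c, an H3 gene, had 10, 24 and 18 counts in the control group against 35, 33 and 31 in the group labelled knockout. The groups did not overlap, and the log2 fold change was 1.00 (SE 0.257, edgeR adjusted p = 6.30e-04). No poly(A) signal was found near its annotated end, and its annotated 3′ UTR is 114 bases long. It is 64.1% unique by the measure above.

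Hist2h2be, the H2B gene with the long 3′ UTR described above, had 15, 8 and 25 counts against 31, 29 and 32. The control libraries varied among themselves, yet all lay below those labelled knockout (log2 fold change 1.01, SE 0.273, edgeR adjusted p = 1.11e-03). Hist1h2bj, an H2B gene with an annotated 3′ UTR of 66 bases, had 6, 12 and 9 counts against 17, 14 and 23 (log2 fold change 1.06, SE 0.348, edgeR adjusted p = 6.24e-03). Its groups did not overlap either.

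Hist1h4i, the member with most counts, had 87, 96 and 78 counts in the control group against 102, 89 and 112 in the other. Scaled to library size the groups did not overlap, with 3.14 ± 0.329 cpm against 3.83 ± 0.188 (SD, n = 3). Its log2 fold change of 0.29 (95% interval 0.04 to 0.53) passed with edgeR (adjusted p = 0.0345) and not with DESeq2 (adjusted p = 0.148). The call was also lost without the first control library (edgeR adjusted p = 0.0797), the third control library (0.155), the first library labelled knockout (0.0705) or the third (0.0882).

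**Figure D4:**
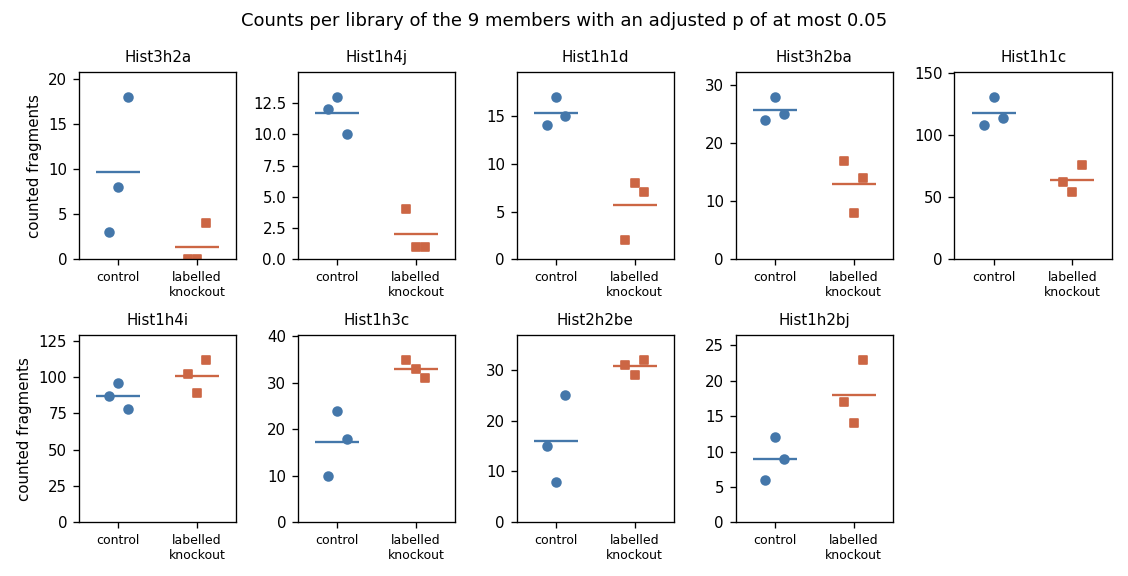
Counted fragments per library (vertical axes, each starting at 0 and with its own scale) of the 9 members called, with circles for the 3 control libraries, squares for the 3 labelled knockout and bars for the group means. Hist1h1c, at 108 to 131 against 54 to 76, has the widest gap in counts, and Hist3h2a, at 3 to 18 against 0 to 4, has groups that overlap.

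The H2B gene Hist1h2bc, next after Hist1h1c in counts, had 56, 67 and 50 against 68, 68 and 63. Its log2 fold change of 0.28 (95% interval -0.03 to 0.58) did not pass (edgeR adjusted p = 0.105), although it did without the second control library (0.40, edgeR adjusted p = 0.0395) or without the third library labelled knockout (0.37, edgeR adjusted p = 0.0476). Hist4h4, an H4 gene, had 13, 16 and 14 against 13, 13 and 15 counts, a log2 fold change of 0.00 (95% interval -0.64 to 0.65). It lies in a stretch of chromosome 6, from 120 Mb on, where the median log2 fold change of 182 tested genes was 0.54.

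Of the 20 members that did not pass, 9 had a 95% interval that excluded a 2-fold change in either direction. Among these were Hist1h4b (log2 fold change 0.18, interval -0.49 to 0.86), Hist1h3g (0.00, -0.68 to 0.69), Hist1h2ae (0.21, -0.40 to 0.82) and Hist1h2ak (-0.09, -0.97 to 0.78), in that order an H4, an H3 and a pair of H2A genes. The interval of the other 11, such as Hist1h2bk (0.45, -0.25 to 1.16), reached at least a 2-fold change, so that a difference of that size could not be told from none at this depth.

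By class, the tested members called were 2 lower of 4 for H1, 1 lower of 5 for H2A, 2 higher and 1 lower of 9 for H2B, 1 higher of 5 for H3, and 1 higher and 1 lower of 6 for H4. The background in the members' range of mean counts was 20.2% higher and 34.2% lower, and no class was tested against it. Scaled to library size, the H2B genes summed to 6.08, 6.84 and 6.45 cpm in the control group against 7.01, 7.84 and 7.19 cpm in the group labelled knockout, and the groups did not overlap. The H2A genes summed to 2.24, 3.09 and 2.59 cpm against 2.18, 1.99 and 1.91 cpm, also without overlap, though 2.24 and 2.18 cpm lie close together. The sums of the H3 genes (2.72 ± 0.299 against 2.78 ± 0.219 cpm) and of the H4 genes (6.18 ± 0.544 against 6.71 ± 0.355 cpm) overlapped (SD, n = 3 each). No test was made of these sums.

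The 5 members called lower all have an annotated 3′ UTR of over 150 bases, and 4 of them have a poly(A) signal near an annotated end. Of the 4 called higher, 2 have such a 3′ UTR (Hist1h4i and Hist2h2be) and 2 do not. Among all 29 members tested, 14 have a 3′ UTR of over 150 bases and 10 have a poly(A) signal near an annotated end. With 9 calls, no test of this split was made.

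The genes of the histone mRNA pathway all reached the count minimum. They have far more counts than the members, so that shifts as small as -0.07 (Slbp) passed. Over all 16823 genes tested, 34.4% were called higher and 35.2% lower, 69.5% in either direction. Calls in both directions are thus common among all genes. Whether this list or the gene lists that follow differ from that background was not tested. Of 17 genes for the 3′ end processing of histone mRNA, 11 were higher, 5 lower and 1 did not pass, with a median log2 fold change of 0.13. Slbp, which encodes the stem-loop binding protein, had 3947, 3877 and 3983 counts in the control group against 3417, 3188 and 4068 in the other (log2 fold change -0.07, SE 0.0308, edgeR adjusted p = 0.0287). The U7 snRNP proteins Lsm10 and Lsm11 had log2 fold changes of 0.15 (edgeR adjusted p = 0.0397) and -0.03 (edgeR adjusted p = 0.596). Zfp473, which encodes a zinc finger protein bound to the U7 snRNP and SLBP complex, was lower (-0.40, SE 0.0390, edgeR adjusted p = 9.89e-13). Casp8ap2, which encodes FLASH, the partner of Lsm11, was higher (0.29, SE 0.0309, edgeR adjusted p = 1.02e-11). Sympk, which encodes the scaffold of the cleavage complex, was also higher (0.30, SE 0.0261, edgeR adjusted p = 2.69e-14).

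Of 13 genes of histone gene transcription, 5 were higher, 5 lower and 3 did not pass. Of those higher, the genes with most counts were Gapdh (log2 fold change 0.75) and Ldha (0.44), which also encode enzymes of glycolysis. Gapdh lies in the stretch of chromosome 6, from 120 Mb on, with a median log2 fold change of 0.54. Npat, the coactivator phosphorylated by cyclin E and CDK2 at histone clusters, had a log2 fold change of 0.19 (edgeR adjusted p = 2.59e-06), and Ccne1, a cyclin E gene, of -0.24 (edgeR adjusted p = 5.51e-12). Of 9 genes of histone mRNA decay, 2 were higher, 4 lower and 3 did not pass. Eri1, the exonuclease that trims the stem-loop end, was lower (-0.39, SE 0.0286, edgeR adjusted p = 4.50e-17). Of 15 genes of ordinary cleavage and polyadenylation, 6 were higher, 2 lower and 7 did not pass, and Papola, a poly(A) polymerase, changed by 0.10 (edgeR adjusted p = 3.38e-04). Only 1 was lower without the third control library or without the first library labelled knockout, and with DESeq2.

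Of 20 genes of S phase, the period in which replication-dependent histones are made, 12 were higher, 3 lower and 5 did not pass, with a median log2 fold change of 0.18. Those called with most counts were the replication helicase genes Mcm5 (0.26), Mcm6 (1.07) and Mcm3 (0.66), the last 2 on chromosome 1, whose 980 tested genes had a median of 0.50. Of 21 histone chaperone genes, 11 were higher, 5 lower and 5 did not pass. Nasp, which holds newly made H3 and H4, changed by 0.19 (edgeR adjusted p = 1.35e-10). The medians of the chromosomes with the Hist1, Hist2 and Hist3 clusters were 0.03 (chromosome 13), 0.01 (chromosome 3) and 0.04 (chromosome 11). Within the span of the Hist1 cluster, the 21 other genes tested had a median of 0.17.

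Among the 11 replication-independent histone genes tested, 8 were higher, 1 was lower and 2 did not pass, with a median log2 fold change of 0.45. The gene that was lower was H2afx, which encodes H2A.X and is known to make both a stem-loop and a polyadenylated mRNA. It had 5266, 5791 and 5879 counts in the control group against 2357, 2238 and 2355 in the other (log2 fold change -1.21, SE 0.0353, edgeR adjusted p = 9.20e-33). H2afy, which encodes macroH2A1, was higher (1.30, SE 0.0300, edgeR adjusted p = 4.17e-37). H3f3a was higher by 0.45, near the median of its chromosome 1, and H3f3b by 0.06. Without the first control library, or without the third library labelled knockout, 2 of these genes were lower.

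The identity of the cells was checked beside these values. All 10 pluripotency markers passed the count minimum, and their sum was 5410 to 5530 cpm in the control group against 6560 to 6610 cpm in the other, with 8 genes higher and 2 lower. Of 16 markers of other cell types, none was at 0 in all libraries and 14 were tested. Of these, 9 were lower, 2 higher and 3 did not pass. The sum of the 16 markers was 89.4 to 94.1 in the control libraries against 33.5 to 35.7 in the others. Col1a1, a collagen gene of fibroblasts, had 1095 to 1188 counts in the control libraries and 92 to 110 in the others. At a mean of 41.1 against 3.93 cpm, which are TMM-scaled unlike the sums, this 1 gene made up much of the fall in the sum. Fewer cells of another type and less RNA per cell cannot be told apart in such libraries. The part of either marker group in the differences among the histone genes was not tested.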

How the data were processed

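TruSeq Stranded mRNA libraries of 3 control and 3 labelled knockout lines were compared, as grouped by the labels. The authors removed rRNA reads, mapped the rest to mm10 (the submitters' processing notes name Bowtie2 2.1.0 and TopHat2 2.0.10) and counted sense-strand fragments per GENCODE M4 gene with HTSeq 0.6.1, discarding fragments with multiple genes or locations. These counts were deposited raw, with one column per library. Depth was 25042261 to 28838924 counts per library. PCR duplicates could not be told from separate molecules.

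Names and transcripts came from GENCODE M21 on the same build, which matched 42425 of 43309 genes. Of its 67 such histone genes, 3 were not analysed here. Genes with at least 10 counts in a library were tested with edgeR 4.0.16 in R 4.3.3 (TMM, quasi-likelihood, two-sided), with Benjamini-Hochberg adjustment over all genes tested and a limit of 0.05. SE is the log2 fold change over the square root of F. The script was tested on simulated data. Alternatives were DESeq2 1.42.0, edgeR's exact test, RLE scaling, no filter, at least 50 counts, the replicate number as a block, and leaving out each library.

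Sequence uniqueness was computed over annotated transcripts on both strands, not over the genome as first planned. The stem-loop search first asked for a loop that starts with TT and was widened to T after 2 other loops were seen.

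The members and gene lists were chosen with earlier results of these data known. Members named were the 12 with the highest level per kilobase, all H1, Hist3 and Hist4 genes, and those called with a mean of at least 20 counts. Of each other list, the 3 called genes with most counts could be named, beside 7 defining factors of histone mRNA. Hist1h4j, Hist2h3b, H1f0, H1fx, H2afy and the genes listed at 0 in every library were named after their values were seen, and H2afz for its level.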

Additional observations from a re-analysis of the deposited data

How the results depend on the processing

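The counts of members called stayed within 1.5 times the reported 4 higher and 5 lower under RLE scaling, DESeq2 (3 and 4), edgeR's exact test and no filter (4 and 6). With at least 50 counts required, only 3 members could be tested, of which 1 was higher and 1 lower. Leaving out each library gave 3 to 5 higher and 5 lower. The members' median log2 fold change lay between -0.03 and 0.07 without each library, at -0.09 with no filter and at 0.26 with at least 50 counts. Among the named members and Hist1h4j no call changed sign. Those that changed sides of the threshold were Hist1h4i, Hist3h2a and Hist1h2bc, as given with them, and Hist3h2a was not tested without the third control library.

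The summed share of counts was 0.00236% to 0.00257% without each control library and 0.00227% to 0.00232% without each library labelled knockout. An alternative chosen after seeing the data set aside the 4 members with most counts, which left 0.00141% and 0.00132%. The ratio of the group means was 0.928, or 0.960 on TMM-scaled values. With 50-base windows the median share of unique sequence was 45.5%.

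Same-numbered libraries of the groups did not deviate together (correlations 0.0049, 0.0749 and 0.0123 over 11115 genes), so the numbers do not pair the lines. With the replicate number as a block, 4 members were higher and 5 lower, the median was 0.005, and no named call changed. At this depth 35 of the 64 members stayed under 10 counts in every library.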
